A study of Solanum lycopersicum with 2 samples.

Results

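Chromosome 12 of tomato (Solanum lycopersicum) carried 5106 of the 65452 sites at which DNA bound by the transcription factor SlWUS was enriched. These 5106 peaks were all the peaks of the list whose sequence name was chromosome 12 of the SL4.0 build, and no measured value entered the choice of single peaks. The chromosome as a whole was picked because earlier work on the same list had shown it to have few peaks per Mb and many very strong ones, so those properties are described here and not tested. The other 11 numbered chromosomes held 60340 peaks and served for comparison. The remaining 6 peaks lay on unplaced sequence.

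The study used DNA affinity purification sequencing (DAP-seq), in which a tagged protein picks fragments from a library of purified genomic DNA outside the cell. The series has 2 samples of genomic DNA of the cultivar Ailsa Craig grown in a greenhouse, one titled for WUSCHEL and the other for its input. The labels of both name the flower abscission zone and Halo, a protein tag used in this assay. With 1 library per group no spread between replicates exists, and no test was possible. Values below carry counting error only, or are set beside the range over the other 11 chromosomes, which are parts of the same library and not replicates.

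WUSCHEL is a homeodomain transcription factor, best known from Arabidopsis, where it moves from the organizing centre of the shoot meristem and keeps the overlying cells in a stem cell state. The signalling peptide CLV3 acts back on it and limits its expression. Tomato chromosomes have gene-rich euchromatin towards their ends and repeat-rich heterochromatin around the centromere. In DAP-seq the DNA has no nucleosomes, so a peak describes DNA that the protein can bind and not binding in the plant. The base sequence and the genes at the chromosome 12 peaks were not analysed here.

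Chromosome 12 had the lowest density of SlWUS peaks among the 12 chromosomes, but not the lowest density of peaks above 10-fold. Its span, from the first base to the end of the last peak, was 66.67 Mb, and the density was 76.6 peaks per Mb (exact Poisson 95% interval 74.5 to 78.7). The other chromosomes ranged from 79.9 peaks per Mb on chromosome 9 to 95.03 on chromosome 6 (mean 85.8 ± 5.63, SD, 11 chromosomes). Against the other 11 pooled, at 85.5 per Mb, the ratio was 0.896 (exact 95% interval 0.870 to 0.922). The interval takes peaks as independent and is too narrow, since the variance of the count in 1 Mb windows of chromosome 12 was 15.2 times its mean. The peaks covered 2.81% of the span of chromosome 12, against 2.96% to 3.59% on the others.

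Peaks of up to 10-fold enrichment, which made up 89.97% of the members, had a lower density than on the other 11 chromosomes pooled. Enrichment here is the authors' fold at the summit, the number of fragments over the summit plus 1 divided by the local background plus 1. Chromosome 12 held 4594 peaks of up to 10-fold at 68.9 per Mb, which was 0.887 times the density on the other 11 (0.861 to 0.914). Above 10-fold it held 512 peaks at 7.68 per Mb against 7.84 elsewhere, a ratio of 0.980 (0.893 to 1.07). The intervals of these ratios overlap, and 7 of the other 11 chromosomes had a higher density above 10-fold. These 512 were 10.03% of the members, where 9.23% of all peaks passed 10-fold, and the share on each of the other 11 chromosomes was lower, from 8.15% to 9.69%.

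**Figure D1:**
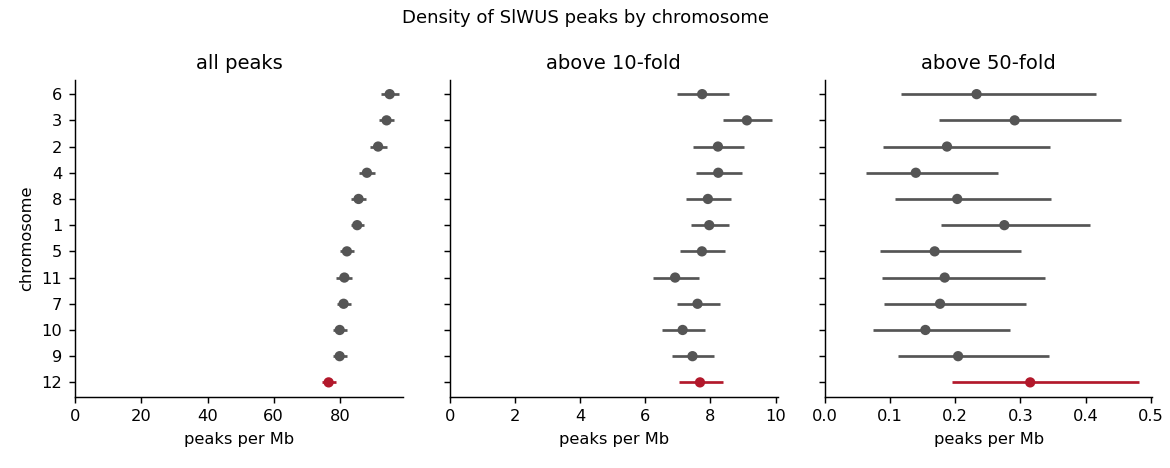
Density of SlWUS peaks on each of the 12 numbered chromosomes (rows, ordered by the density of all peaks), as peaks per Mb of span, for all peaks, peaks above 10-fold and peaks above 50-fold. Points are densities, lines exact Poisson 95% intervals that cover counting error only, and chromosome 12 is in red. It is lowest for all peaks (76.6 per Mb), within the range of the others above 10-fold (7.68) and highest above 50-fold (0.315).

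Further up the scale of enrichment chromosome 12 moved up in rank among the 12 chromosomes. Above 20-fold chromosome 12 held 123 peaks, or 2.41% of its peaks against 1.99% of all peaks, and 1.85 per Mb, a density 1.10 times that of the other 11 (0.909 to 1.33). Above 50-fold it held 21 peaks, 0.411% against 0.252% of all, at 0.315 per Mb. This was the highest density of the 12 chromosomes, the others ranging from 0.140 on chromosome 4 to 0.291 on chromosome 3. The ratio to the other 11 pooled was 1.54 (0.927 to 2.45). Above 100-fold it held 9 of the 35 such peaks in the genome, 0.176% of the members against 0.0535% of all peaks, while its span is 8.63% of the 12 chromosomes. The other chromosomes held 0 to 8 of these peaks, with 8 on chromosome 1, which is longer. The ratio of densities was 3.66 (1.51 to 8.07). These intervals give counting error and test nothing, since chromosome 12 was chosen with its strong peaks known.

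**Figure D2:**
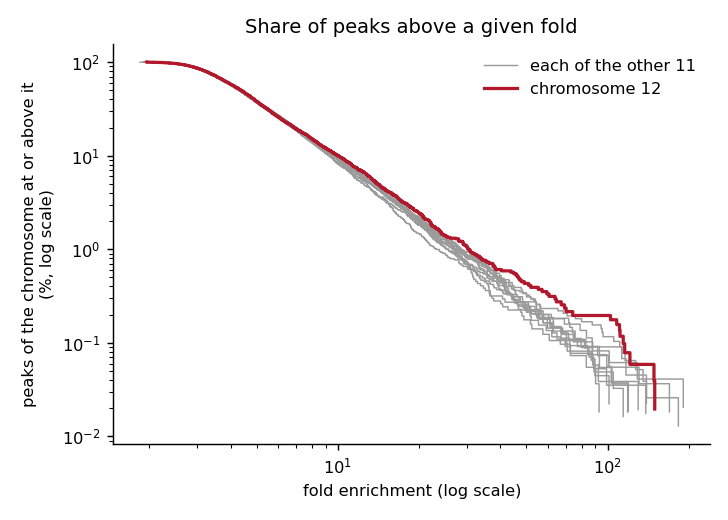
Share of the peaks of a chromosome (y, percent, log scale) at or above a given fold enrichment (x, log scale), for chromosome 12 in red and each of the other 11 chromosomes in grey. The lines run together at low fold, and the chromosome 12 line lies at the upper edge from about 10-fold upwards, with 0.411% of its peaks above 50-fold. Its line ends at 149-fold, short of the highest peaks of some other chromosomes.

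Peaks on chromosome 12 were dense at both ends and sparse between them, and the dense part at the right end was short. The outer 10% at the left end, up to position 6666602, held 889 peaks at 133 per Mb (124.7 to 142), denser than the same part of 8 of the other 11 chromosomes. The outer 10% at the right end, from position 59999421, held 851 peaks at 128 per Mb (119 to 137), less than on all the other 11, which ranged from 133 to 155. The central zone, from 30% to 70% of the span, held 1655 peaks at 62.1 per Mb (59.1 to 65.1). The density of both ends together was 2.1 times that of the centre (1.96 to 2.25), in the middle of the other chromosomes, of which 5 had a higher ratio and 6 a lower one.

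The part from 70% to 90% of the span had the lowest density relative to the other 11 pooled, although it lay within their range. On chromosome 12 it ran from position 46666217 to 59999420 and held 958 peaks at 71.9 per Mb (67.4 to 76.5), where the median of the other 11 was 104 per Mb and their range 58.5 to 142. Only 2 of the 11 had a lower density there. At the pooled density of the other 11, part by part, chromosome 12 would hold 5699.7 peaks, which is 594 more than it had. The part from 70% to 90% was 369 peaks short, the central zone 126, the right end 102 and the part from 10% to 30% 76.4. The left end held more than that density gives, so these 4 add up to more than the net shortfall, of which the 369 peaks are 62.2%. The ratio to the pooled others was 0.722 (0.675 to 0.771) in this part, 0.893 (0.832 to 0.958) at the right end, 0.929 (0.883 to 0.977) in the centre, 0.908 (0.842 to 0.978) from 10% to 30%, and 1.099 (1.02 to 1.18) at the left end. These intervals also take peaks as independent and are too narrow. Chromosome by chromosome, 3 of the 11 had a lower density in the centre and 4 of the 11 from 10% to 30%. With the part from 70% to 90% left out of every chromosome, chromosome 12 had 77.8 peaks per Mb. It was then no longer the lowest, with 76.6 on chromosome 1, while chromosome 7 was nearly equal to it, at 77.77 against 77.78. This alternative was added after the data were seen. Leaving out the part with the lowest ratio had to bring chromosome 12 closer to the others.

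**Figure D3:**
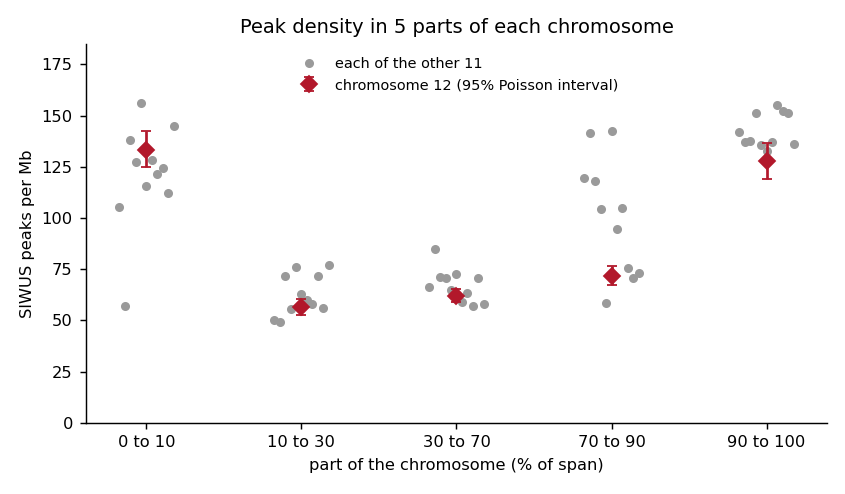
Density of SlWUS peaks (y, peaks per Mb) in 5 parts of each chromosome (x, percent of the span). Red diamonds are chromosome 12 with exact Poisson 95% intervals, and grey points are the other 11 chromosomes. Chromosome 12 lies at 71.9 per Mb from 70% to 90%, where the other chromosomes spread from 58.5 to 142, and below all of them from 90% to 100%.

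The same was seen in windows of 1 Mb. The dense end was taken to reach inwards until 2 windows in a row held fewer than 100 peaks. By this measure it was 6 Mb long at the left of chromosome 12 and 6 Mb at the right. On the other chromosomes the left end was 0 to 11 Mb long (median 5) and the right end 5 to 22 Mb (median 13), and 9 of the 11 had a longer dense right end. Of the 66 full windows on chromosome 12, 12 held more than 100 peaks, which is 18.2% against 18.8% to 44.7% on the others.

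The fullest windows were all near the ends. The window from 1000001 to 2000000 held 173 peaks and the first window of the chromosome 152. At the other end the window from 65000001 to 66000000 held 146 peaks. Next came 145 peaks from 2000001 to 3000000 and 139 from 62000001 to 63000000. The median fold in these 5 windows lay between 4.12 and 4.32, slightly under the chromosome's 4.38. At a finer scale the fullest 100 kb window held 26 peaks, from 1400001 to 1500000. It was followed by 25 peaks from 1200001, 23 from 1800001, 23 from 59000001 and 22 from 200001. Of these 5, the window from 59000001 was the one outside the first 2 Mb. The highest fold in any of them was 31.1, in the window from 200001.

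The emptiest windows lay at the middle of the chromosome and at a few places on either side. The neighbouring windows from 32000001 to 34000000, at about 49% to 50% of the span, held 20 and 23 peaks. The window from 8000001 to 9000000 held 28 peaks, that from 56000001 to 57000000 held 33, and that from 17000001 to 18000000 held 35. Fewer than 50 peaks were found in 13 of 66 windows, 19.7%, against 6.38% to 22.4% on the other chromosomes. Of the 13, 6 lay between 8000001 and 19000000, counting the run of 3 windows from 16000001 with 119 peaks in all. The part from 34000001 to 52000000 had none.

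**Figure D4:**
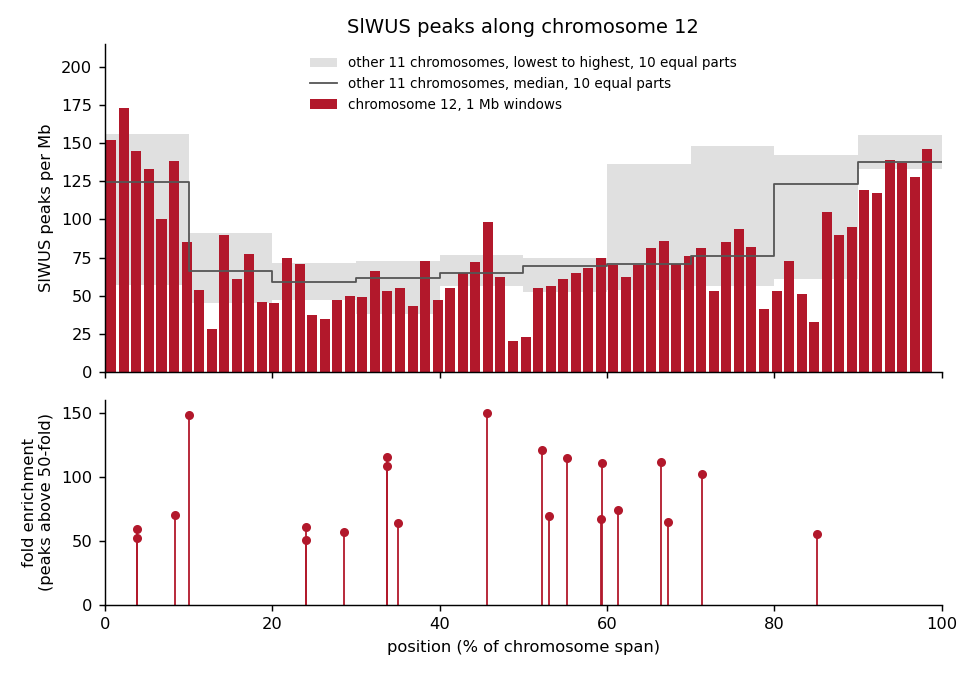
SlWUS peaks along chromosome 12, with position as percent of the span on the x axis. Upper panel: red bars are peaks in each full 1 Mb window, the grey line and band the median and range of the density on the other 11 chromosomes in 10 equal parts of their span. Lower panel: fold enrichment of each of the 21 peaks above 50-fold. The bars reach 173 at the left end and fall to 20 at the middle, and from 80% to 90% they lie below the grey line. No peak above 50-fold lies in the last 10% of the span.

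Long stretches without a peak took up 12.6% of chromosome 12. There were 49 stretches over 100 kb, which together made 8.39 Mb. The other chromosomes had 6.57% to 13.1% of their span in such stretches, and chromosome 9 alone had more than chromosome 12. The longest was 635056 bp, from 17570583 to 18205638. The next were 516630 bp from 56101839 to 56618468 and 470293 bp from 16167417 to 16637709. All 3 lie mainly within the sparse windows named above.

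The other 5 of the 8 longest stretches were 207140 to 329236 bp long. They began at 52576406, 7927156, 55757364, 19368484 and 23084294. Together the 8 fell into groups: those from 16167417, 17570583 and 19368484 lay between 24% and 30% of the span, and those from 52576406, 55757364 and 56101839 between 79% and 85%. Of all 49 stretches, 21 lay in the central zone, 12 from 10% to 30%, 11 from 70% to 90% and 5 in the outer 10% at either end. Whether reads could be placed there was not tested. Taking these stretches out of every span moved the density ratio to the other chromosomes from 0.896 to 0.917, and chromosome 12 stayed the lowest of the 12.

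The strongest peak of the chromosome lay near its middle, from 30435109 to 30435723. It had 1323 fragments at the summit (exact Poisson 95% counting interval 1253 to 1396) over a background of 7.86, a fold of 149. The second was just past the inner edge of the left end, from 6696032 to 6696767, with 1120 fragments (1055 to 1188) over 6.55, also 149-fold. Their intervals expressed as fold, 142 to 158 and 139.9 to 157, overlap, so their order is not resolved. They ranked 4 and 5 among all numbered chromosomes.

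The next 5 were all central. Their intervals expressed as fold overlap, with 113 to 129 for rank 3 and 103 to 118 for rank 7, so their order is not resolved. Rank 3, from 34824163 to 34824692, had 901 fragments and a fold of 121. Rank 4, from 22470600 to 22471107, had 911 fragments and a fold of 116, and rank 5, from 36767824 to 36768338, had 827 fragments and a fold of 114. Fragment number and fold thus gave ranks 3 and 4 in opposite order, because their backgrounds were 6.46 and 6.88. Rank 6, from 44288921 to 44289402, reached 111-fold with 563 fragments, the fewest of the 9 above 100-fold, over the lowest background in the list, 4.08. Rank 7, from 39627904 to 39628423, had 831 fragments and a fold of 111.

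A further pair above 100-fold completed the group. Rank 8, from 22428647 to 22429114, had 657 fragments and a fold of 108, and rank 9, from 47524952 to 47525437, had 779 fragments and a fold of 102. Ranks 8 and 4 lay within the same 100 kb. A wide step followed, since no peak of chromosome 12 had a fold between 102 and 74.2. The last 3 of the 12 strongest were at 40901407 to 40901900 (74.2-fold, 611 fragments), 5545920 to 5546494 (70.1-fold, 406 fragments) and 35347739 to 35348220 (69.2-fold, 582 fragments).

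The 21 peaks above 50-fold lay mainly away from the dense ends. The central zone held 12, the outer 10% at the left end held 3 and the right end held 0, while 4 lay between 10% and 30% of the span and 2 between 70% and 90%. Of the 9 above 100-fold, 7 were central and 0 distal. The second strongest, with its summit at 6696498 or 10.04% of the span, lay just past the 10% limit. The counts of 0 distal and of 3 at the left end thus depend on where the ends are cut. The density of peaks above 50-fold in both ends together was 0.50 times the central density on chromosome 12 (0.091 to 1.85) and 0.346 times on the other 11 (0.181 to 0.614). The counts of chromosome 12 are too small to set a value below or above equality. The limit of 50-fold cut between peaks of 50.9-fold, from 16036387, and 49.1-fold, from 62882514. The latter lies in the right end, so the count of 0 there depends on the limit.

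For lower limits the ends had the higher density again. Peaks above 10-fold had 11.1 per Mb at the ends and 6.75 in the centre, a ratio of 1.64 (1.31 to 2.06), and peaks above 20-fold had a ratio of 1.35 (0.839 to 2.14). Up to 10-fold the ratio was 2.16 (2.01 to 2.32). The 123 peaks above 20-fold were spread widely, with at least 1 in 56 of the 66 full windows. The longest distance between successive ones was 2.52 Mb, from 51152686 to 53677316.

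The surroundings of the strong peaks were like those of all members of chromosome 12 in density and fold. Within 100 kb on either side of a summit, members of chromosome 12 had a median of 18 other peaks, and the 21 members above 50-fold had a median of 17. The nearest summit was 2963 bp away at the median for these 21 and 2901.5 bp for all members. The peaks directly beside them had a median fold of 4.47, against 4.38 beside all members. Position along the chromosome was not matched, and 12 of these 21 were central. On the other 11 chromosomes, peaks above 50-fold had a median of 14 other peaks within 100 kb, against 21 for all peaks. Their nearest summit was 4973 bp away at the median, against 2647 bp for all peaks there. A peak of 55.3-fold with 344 fragments, from 56708909 to 56709344, stood in one of the emptiest windows, after the stretch of 516630 bp without a peak.

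Several peaks above 50-fold had another within 100 kb. Those from 2554095 to 2554744 (59.5-fold) and from 2570041 to 2571314 (51.9-fold) were direct neighbours with summits 15988 bp apart, the shortest distance among the 21. The median distance between successive peaks above 50-fold was 2.04 Mb, and the longest 9.29 Mb, between the summits at 6696498 and 15987336. Within 10 kb of each other there were 2 pairs of successive peaks above 20-fold. In the first pair a peak of 21.1-fold from 401236 to 401668 lay 8436 bp from another of 38.02-fold from 409652 to 410655, with 1 weaker peak between them. In the second, peaks of 20-fold from 58513396 to 58513834 and of 28.1-fold from 58515244 to 58515648 were 1812 bp apart. The other chromosomes had 2 to 6 such pairs each.

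Typical peaks of chromosome 12 resembled those elsewhere in fold and depth. The median fold was 4.38 (exact 95% interval 4.32 to 4.45, quartiles 3.39 and 6.12), where the medians of the other 11 ran from 4.29 to 4.38. The median number of fragments at the summit was 29 (quartiles 23 and 42), against medians of 29 or 30. The exact Poisson interval of 29 fragments, 19.4 to 41.6, spans nearly the whole middle part of the distribution, so peaks near the median are not ranked by this depth. The smallest number was 12 fragments and the lowest fold 1.95.

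Peaks of chromosome 12 were the narrowest of the 12 chromosomes by a few bp. The median width was 309 bp (exact 95% interval 305 to 313, quartiles 250 and 407), and the medians of the other 11 ran from 310.0 to 315 bp. It was also the lowest among peaks of up to 5-fold, 270.0 against 271 to 276 bp, from 5- to 10-fold, 343 against 346 to 355 bp, and from 10- to 20-fold, 404 against 407 to 443 bp. Above 20-fold the median of 469 bp lay in the middle of the others, from 448 to 487 bp. Within zones it was not the lowest throughout: the centre had 300.0 bp, with 2 of the other 11 lower, and the ends 322 bp, with 4 lower. The interval of the median over all members, 305 to 313 bp, includes the medians of several of the other chromosomes.

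Width differed with strength and with position. It rose from a median of 270.0 bp up to 5-fold to 494 bp above 50-fold. Across the 5106 members the correlation of log2 fragments with log2 width was r = 0.420 and rho = 0.449, and it was r = 0.416 over the other 11. Both measures come from the same pileup of fragments, so they are not independent. The central zone had a median of 300.0 bp and both ends 322 bp. By zone, width did not follow fold, since the median fold was 4.59 in the centre and 4.18 at the ends. Peaks of at least 800 bp made up 1.87% of the central members, 5.40% at the left end and 5.17% at the right end, and 3.53% of all members (180 peaks) against 3.40% to 4.52% on the other chromosomes.

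The widest peaks were not the strongest. The widest, 2341 bp, ran from 52073955 to 52076295 with a fold of 14.8 and 130 fragments at the summit. The second, 2004 bp from 50681205 to 50683208, had a fold of 13.2 and 70 fragments. The others of the 5 widest were 1763 bp from 3948754 (5.96-fold), 1745 bp from 61889895 (11-fold) and 1708 bp from 82711 (7.05-fold). In contrast, 20 of the 21 peaks above 50-fold were 436 to 736 bp wide. The exception was the peak from 2570041, at 1274 bp.

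Neighbouring peaks lay farther apart than on most other chromosomes. The median distance between neighbouring summits was 6380 bp (exact 95% interval 6114 to 6735, quartiles 2297 and 15259), and chromosome 10 alone had a higher median, 6389 bp. The others ranged down to 5148 bp on chromosome 6. Divided by the mean distance, the median was 0.489 on chromosome 12 and 0.459 to 0.520 on the other 11, so relative to its density the spacing lay within their range. The median distance was 4376 bp at the left end, 4423.5 bp at the right end and 8929.5 bp in the central zone.

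Both tails of the distances pointed the same way, but fixed limits in bp depend on the density for which the chromosome was picked. The same holds for the runs of close peaks below, so none of these is separate support. Of the distances of at least 500 bp, 21.4% (exact binomial 95% interval 20.3 to 22.6) were under 2000 bp, against 20.99% on chromosome 10 and 22.4% to 24.99% on the other 10 chromosomes. At the other tail, 3.84% of distances (196, interval 3.33 to 4.40) were 50 kb or more, above the 2.26% to 3.55% of the other chromosomes. Short distances made up 28.6% at the left end, 24.6% at the right end and 16.8% in the centre.

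**Figure D5:**
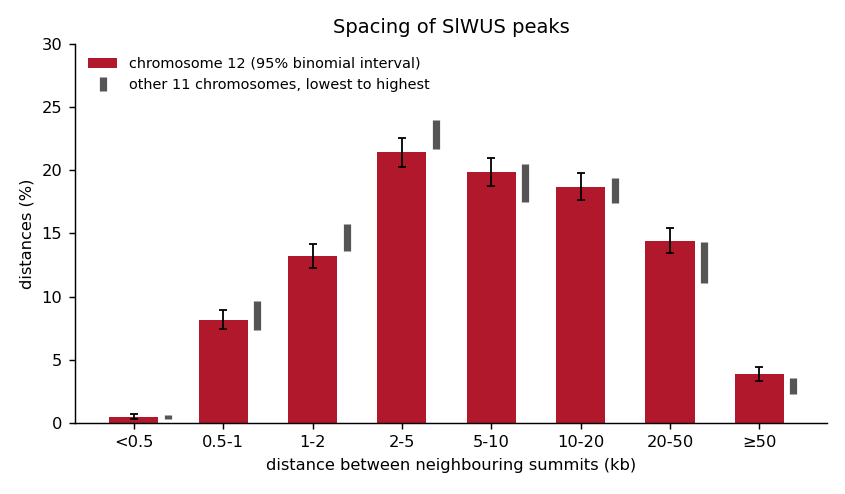
Distances between neighbouring SlWUS summits on chromosome 12 (red bars, percent of 5105 distances, with exact binomial 95% intervals) in classes of kb, beside the lowest and highest share on the other 11 chromosomes (grey lines). The share from 1 to 2 kb, 13.2%, lies below the range of the others, and that of 50 kb or more, 3.84%, lies above it.

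Runs of close peaks held a smaller share of the members than on 10 of the other 11 chromosomes. Summits in which each step was under 2000 bp formed 200 runs of at least 3 peaks, holding 13.2% of the members, where chromosome 10 had 12.6% and the other 10 had 15.4% to 17.2%. The longest run had 7 peaks over 7005 bp, from 63194655 to 63201659, with a median fold of 3.40. A run of 6 peaks from 9933374 to 9940062 had a median fold of 9.08 and included a peak of 22.2-fold. The other 3 runs of 6 named here began at 1112049, 1196295 and 5345730, all in the left end, with median folds of 3.27, 5.41 and 5.23.

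The background behind the peaks, the number of fragments expected at the summit, was higher at the dense ends than in the inner parts. Its median was 6.39 at the left end, 6.32 at the right end, 5.83 in the centre, 5.73 from 10% to 30% and 5.71 from 70% to 90%. Among the inner parts it did not follow density, since the part from 70% to 90% was the densest of them. The lowest value, 4.08, stood behind 2.92% and 1.76% of peaks at the left and right end, 8.64% in the centre, and 14.2% and 13.05% in the parts from 10% to 30% and from 70% to 90%. In each of the 5 emptiest windows it was more frequent still, at 18.2% to 46.4% of peaks. The highest share, 46.4% of 28 peaks, was from 8000001 to 9000000. Other windows with fewer than 50 peaks differed, with 35.6% of 45 peaks from 13000001 to 14000000 and 2.13% of 47 peaks from 18000001 to 19000000. Across the 66 windows of 1 Mb the number of peaks and the median background had r = 0.610 and rho = 0.455. Windows share the library and the local background model, and the part of read placement or copy number in this was not tested.

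High background was rare on all 12 chromosomes. A value of at least 2 times the median of all peaks, 6.11, was found behind 4 members, or 0.0783%. The other chromosomes had 0.0226% to 0.406%, with chromosomes 5, 6 and 11 below chromosome 12. The highest, 16.2, stood behind a peak of 6.41-fold from 1200433 to 1200825 and one of 4.37-fold from 60129894 to 60130238. The next, 14.4, belonged to a strong peak, from 22245843 to 22246306, whose 711 fragments gave a fold of 46.2. By fragments this peak is stronger than 14 of the 21 peaks above 50-fold. The remaining pair of the 5 highest were 13.5 behind a peak of 3.72-fold from 63589098 and 11.4 behind one of 2.51-fold from 43862822.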

How the data were processed

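Peaks of 1 SlWUS DAP-seq library were used as deposited; the input library was not analysed here. Per the submitters' processing notes, reads were aligned with Bowtie2 2.2.5, peaks called with MACS2 2.1.2 and annotated with ChIPseeker, with settings not given in the sources used here. Sequence names give the build, SL4.0, and positions are counted from 1. The deposited fold enrichment is a ratio at the summit, and the −log10 p and −log10 q values come from the authors' peak calling. The deposited score repeats the −log10 q, multiplied by 10 and truncated, and was left aside. Every listed peak has a q of at most 0.0481.

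Fragments at the summit and background were solved from the deposited fold and p under the Poisson model of MACS2. All 65452 peaks gave a whole number of fragments that matched the deposited −log10 p to within 0.001. Neither the read depth of the library nor the independence of the fragments is known. Densities use the span up to the last peak's end. Intervals are exact: Poisson for counts, conditional binomial for ratios of densities, binomial for shares and order statistics for medians. They cover counting error only. Scripts were tested on simulated data. The members, limits and zones were chosen with earlier results of these data known; peaks and windows are named by rank (12 strongest, 5 widest, 8 longest stretches, 5 fullest and emptiest windows). The peaks from 2554095, 2570041 and 56708909 and those beside the limit of 50-fold were named after their values were seen. The software was Python 3.11.15 with scipy 1.17.1, numpy 2.4.6, matplotlib 3.10.9 and pandas 2.3.3.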

Additional observations from a re-analysis of the deposited data

How the results depend on the processing

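The 7 results on density, zones, strong peaks, width, fold, distance and short distances were computed under 19 alternatives, of which 17 were set with the design and 2 were added after seeing the data. Of these, 16 stayed within the 95% interval of the reported value, and 3 moved outside it. The ratio of strong peaks has a wide interval, and it fell to the other side of 1 above 10-fold. The ratio of peak density to the other chromosomes moved from 0.896 to 0.949 without the part from 70% to 90% of the span, an alternative added later. The ratio of the ends to the centre moved from 2.1 to 1.65 with ends of 20% and a centre from 40% to 60%, which changes both zones at once, and the cause was not tested. The ratio of strong peaks moved from 1.54 above 50-fold to 3.66 above 100-fold, and it was 1.10 above 20-fold and 0.980 above 10-fold, the second alternative added later. Ranked by −log10 q, chromosome 12 held 23 of the top 165 peaks, a ratio of 1.71 (1.05 to 2.68). This interval tests nothing, since chromosome 12 was chosen with its strong peaks known. The −log10 q also comes from the same fragments and background as the fold. With a −log10 q of at least 5, 79.9% of the members and 79.99% of all peaks remained, and the density ratio was 0.895. No paired analysis was possible because there is 1 library per group. Depth limits the order of peaks near the median of 29 fragments. The small number of peaks above 50-fold limits all statements on their zones.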
